A study of Homo sapiens with 3 samples.

Results

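The MHC class I presentation genes described here are HLA-B, HLA-C, HLA-E, HLA-F, B2M, TAP1, TAP2, PSMB8 and PSMB9. They were chosen by symbol, as every non-control probe whose gene name in the array files was one of these 9 symbols. This gave 15 probes of 9 genes, of 58200 probes and 43316 gene names on the array. Gene expression was measured in 3 human cell lines with 1 Agilent single-colour microarray per line, all 3 on 1 slide. H1975 (NCI-H1975) is an osimertinib-sensitive non-small cell lung cancer line that carries an activating EGFR mutation together with a second EGFR mutation that gives resistance to earlier EGFR inhibitors. OR1 and OR2 are osimertinib-resistant lines derived independently from H1975 by exposure to rising doses of osimertinib, an EGFR tyrosine kinase inhibitor, to a final 2 μmol/L within 4 months. All 3 lines share the H1975 background and were grown in the same serum-supplemented medium. Whether drug was present when RNA was taken is not given in the sources used here.

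MHC class I molecules display peptides from inside the cell to CD8 T cells. The proteasome cuts proteins into peptides, and the immunoproteasome is a form of it with exchanged catalytic subunits, among them PSMB8 and PSMB9. TAP1 and TAP2 form the transporter that carries peptides into the endoplasmic reticulum, where heavy chains such as HLA-B and HLA-C pair with the light chain B2M and are loaded. Interferon gamma is known to induce most of these genes, through transcription factors such as IRF1 and the coactivator NLRC5.

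A ratio here is the background-corrected intensity of a probe in OR1 or OR2 over that in H1975, after each array was divided by its own 75th percentile of intensity, which was 157 in H1975 cells, 138 in OR1 and 162 in OR2. Following the study's methods, a gene was counted as up at a ratio of at least 2 and as down at a ratio of at most 0.5. With 1 array per line there is no replicate check and no test, so each difference is between 2 arrays. The error given is the technical SD on the log2 scale that follows from the scanner software's error of each spot, and it covers neither culture nor labelling. For all member probes with a ratio in both lines it was 0.20 to 0.21. This nearly constant value reflects the software's multiplicative error of 10% and is not a measured spread. Each array had 45.6% to 45.9% of its probes well above background, and no spot was saturated.

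Epithelial markers were detected in every line, and 6 of 6 epithelial genes were well above background on each array. Their summed intensity was 2480 times the array's 75th percentile in H1975, 1071 times in OR1 and 1064 times in OR2, and 4 of the 6 (KRT19, KRT7, EPCAM and CDH1) were down in both resistant lines. The ratios of CDH1 were 0.020 in OR1 and 0.080 in OR2 and those of EPCAM 0.037 and 0.073, while KRT8 and KRT18 were not down. Of 7 leukocyte genes, 6 were found on the array, and their summed intensity was 3.76, 8.93 and 13.5 times the 75th percentile in H1975, OR1 and OR2. CD3E, CD2 and ITGAM stayed below the background limit of each array, PTPRC (CD45) read 20.5 to 21.0 intensity units against the lowest value well above background of 11.4 to 12.6, and most of the sum came from CD14. The fibroblast sum, over 5 genes, was 4.34, 4.94 and 0.625 times and the endothelial sum, over 3 genes, 0.565, 0.709 and 0.642 times. The part of other cells in the values below was not tested.

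No member reached either ratio with the arrays scaled on their 75th percentile. Of the 9 genes, 0 were up and 0 were down in OR1, in OR2 or in both. On the whole array, 9.18% of genes with a ratio were up in OR1, 7.72% in OR2 and 5.4% in both, and 9.58%, 8.7% and 6.71% were down. By its brightest probe each gene's ratio was above 1 in both lines for 5 genes (HLA-F, B2M, TAP1, TAP2 and PSMB8) and below 1 in both for PSMB9. Of all genes with a ratio in both lines, 37.5% were above 1 in both and 41.8% below 1 in both. HLA-B, HLA-C and HLA-E were above 1 in OR1 but below 1 in OR2. Their OR2 ratios were above 1 with quantile normalization and with the authors' normalized intensities. The members' median log2 ratio was 0.25 in OR1 and 0.13 in OR2, beside 0.01 and -0.08 over all genes with a ratio in both lines. Scaled on the array's spike-in controls, the members' median in OR1 was -0.35 and that of all genes -0.59, so that all 9 members stood below 1 in OR1, where PSMB9 alone was below 1 with the 75th percentile. Relative to the median of all genes, the members' median in OR1 was higher by 0.24 with the 75th percentile and by 0.25 with the spike-in controls. Each of these scalings shifts all values of an array alike, which cancels in that difference except where ratios are bounds. Their agreement was therefore fixed by the method and is no check of the members' shift.

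**Figure D1:**
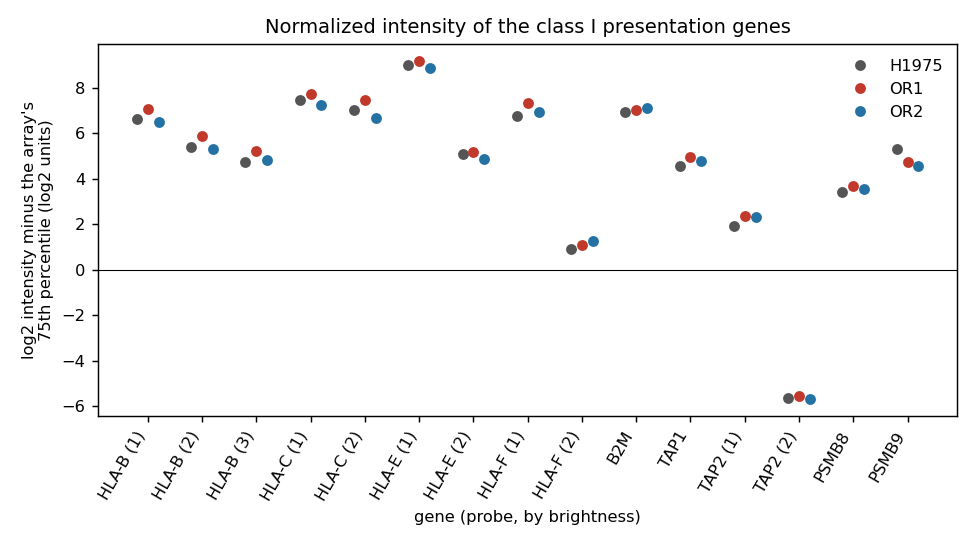
Log2 intensity of each of the 15 member probes above its array's 75th percentile (vertical axis, log2 units) in H1975, OR1 and OR2, with probes of a gene numbered by brightness and 1 point per array. PSMB9 is highest in H1975, at 5.30 against 4.72 in OR1 and 4.56 in OR2, and the dim TAP2 probe lies far below the rest in all 3 lines. Points are to be compared within a probe, since probes differ in their binding.

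With the scaling used for the ratios, PSMB9 was the only member whose intensity was lower in both resistant lines. With spike-in scaling HLA-B, HLA-C and HLA-E were also lower in both by their brightest probes, as was HLA-E with no scaling. PSMB9 encodes beta1i, the immunoproteasome subunit that replaces the constitutive subunit PSMB6. Its single probe (NM_002800, hg19 chr6:32823918-32823977, plus strand) had an intensity of 6197 in H1975 cells, 3644 in OR1 and 3805 in OR2. The ratio to H1975 was 0.671 in OR1 (log2 ratio -0.58, technical SD 0.20) and 0.598 in OR2 (log2 ratio -0.74, technical SD 0.20), short of the 0.5 that counts as down, which OR1 passed with spike-in scaling at 0.444. Both resistant lines lay on the same side of H1975, and OR2 differed from OR1 by a ratio of 0.891, less than the technical SD. Of 18589 genes well above background on all 3 arrays, 17.0% had a lower ratio than PSMB9 in OR1 and 11.9% in OR2, so a shift of this size was common on these arrays. The probe shares no run of 25 bases or more with another probe of the array. It is printed because the lower value rests on this 1 sequence, with no base singled out in capitals.
PSMB9 probe: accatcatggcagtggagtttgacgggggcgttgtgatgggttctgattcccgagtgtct

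PSMB8, which encodes beta5i, the immunoproteasome counterpart of PSMB5, did not show the lower values of PSMB9, except in OR1 with spike-in scaling, where its ratio was 0.777. Its probe (NM_004159, hg19 chr6:32810023-32810490, minus strand, a span longer than its 60 bases) read 1709 in H1975 cells, 1760 in OR1 and 1918 in OR2. The ratios were 1.17 in OR1 and 1.09 in OR2. In log2 units these were 0.23 and 0.13, the second of them under the technical SD of 0.20.

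The other inducible proteasome genes lay on the side of PSMB9. The list held PSMB10, the remaining immunoproteasome subunit (beta2i), and PSME1 and PSME2, which form the PA28 activator. All 3 were below 1 in both lines under each of 8 scalings and corrections, and 0 of 3 were down. PSMB10 read 12934 in H1975 cells, 8180 in OR1 and 8718 in OR2, for ratios of 0.721 and 0.656. PSME1 read 1138, 665 and 914, for ratios of 0.667 and 0.782. PSME2 read 50327, 29103 and 33966, for ratios of 0.660 and 0.657. The median log2 ratio of the list was -0.59 in OR1 and -0.61 in OR2, beside 0.01 and -0.08 over all genes. The constitutive catalytic subunits did not share that side in OR1, except with spike-in scaling, which put all 3 below 1 there. Quantile normalization and the authors' normalized intensities put all 3 above 1 in both lines. Of these genes, 0 of 3 were up or down in either line, while 5.4% of all genes were up and 6.71% down in both. PSMB5 had ratios of 1.49 in OR1 and 1.03 in OR2, PSMB6 of 1.22 and 0.951, and PSMB7 of 1.14 and 0.936. In both lines PSMB9 thus had a lower ratio to H1975 than PSMB6, the subunit it replaces, each by a single probe.

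TAP1 and TAP2 encode the paired chains of the peptide transporter, and both were higher in OR1 and OR2 than in H1975, with the exception of OR1 after spike-in scaling. TAP1 (NM_000593, hg19 chr6:32813210-32813269, minus strand) read 3717 in H1975 cells, 4351 in OR1 and 4433 in OR2, for ratios of 1.34 and 1.16. TAP2 by its brighter probe (NM_001290043, hg19 chr6:32793222-32793281, minus strand) read 597, 719 and 812, for ratios of 1.37 and 1.32. In log2 units the shifts were 0.42 and 0.22 for TAP1 and 0.46 and 0.40 for TAP2, each with a technical SD of 0.20. With spike-in scaling the OR1 ratios were 0.884 for TAP1 and 0.909 for TAP2. The second TAP2 probe (hg19 chr6:32789804-32789863) read at most 3.18 intensity units, below the background limit of all 3 arrays, and gives no ratio. The TAP1 probe is the exact reverse complement, over all 60 bases, of a probe for the antisense gene PSMB8-AS1. That probe gave log2 ratios of 0.15 in OR1 and 0.57 in OR2, against 0.42 and 0.22 for TAP1. The paired probes thus put the resistant lines in opposite order.

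TAP1 and PSMB9 are neighbours that are read in opposite directions, and their values parted in both lines. In RefSeq (GRCh38.p14) their start sites lie 488 bases apart. The 250 bases before each start are printed because this shared stretch carries both promoters, and the windows overlap by 13 bases. The genes stood on opposite sides of H1975, except in OR1 with spike-in scaling, where both were below it. Capitals mark matches to the interferon-stimulated response element, searched as GAAANNGAAA, and to the NF-kB site, searched as GGGNNTTTCC, on either strand.
TAP1 promoter, chr6:32853705-32853954, minus strand: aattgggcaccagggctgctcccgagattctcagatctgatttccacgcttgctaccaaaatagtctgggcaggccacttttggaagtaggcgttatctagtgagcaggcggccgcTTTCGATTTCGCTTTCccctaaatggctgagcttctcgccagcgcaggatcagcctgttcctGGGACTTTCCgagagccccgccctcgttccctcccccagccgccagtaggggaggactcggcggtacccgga
PSMB9 promoter, chr6:32853942-32854191, plus strand: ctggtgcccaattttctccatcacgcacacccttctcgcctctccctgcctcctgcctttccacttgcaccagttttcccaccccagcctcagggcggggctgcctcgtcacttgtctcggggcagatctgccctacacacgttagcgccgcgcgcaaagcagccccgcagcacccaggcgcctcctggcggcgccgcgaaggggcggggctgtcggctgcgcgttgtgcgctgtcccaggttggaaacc

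The TAP1 window holds 2 overlapping matches to the first motif and 1 to the second, and the PSMB9 window holds neither. The TAP1 matches lie between both start sites, so they are also upstream of PSMB9, but outside its window of 250 bases. Of the 8 members with a promoter in the set used, 4 had the first motif (B2M, HLA-F, TAP1 and TAP2), in 4 of their 10 windows. Of 35116 promoters of the same length, 3.02% had it. Members are counted over all their windows, of which TAP1 and PSMB8 have more than 1, while the shares of all are per window. The gamma-activated site, searched as TTCNNNGAA, was found in a window of PSMB8 and in one of TAP1, against 6.57% of all. The NF-kB motif was found in B2M and TAP1 (1.73% of all) and CCAAT in 6 members, namely B2M, HLA-B, HLA-C, HLA-F, PSMB9 and TAP1 (32.0% of all). With the scaling used for the ratios, the 4 genes with the first motif were above 1 in both lines, as was PSMB8 without it. With spike-in scaling all of these were below 1 in OR1, at 0.710 for B2M, 0.884 for TAP1, 0.9085 for TAP2, 0.997 for HLA-F and 0.777 for PSMB8. B2M was also below 1 in OR1 with median scaling (0.995) and no scaling (0.940). Whether the motifs bear on these ratios was not tested. A match is a description of letters and says nothing of whether a factor bound there.

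**Figure D2:**
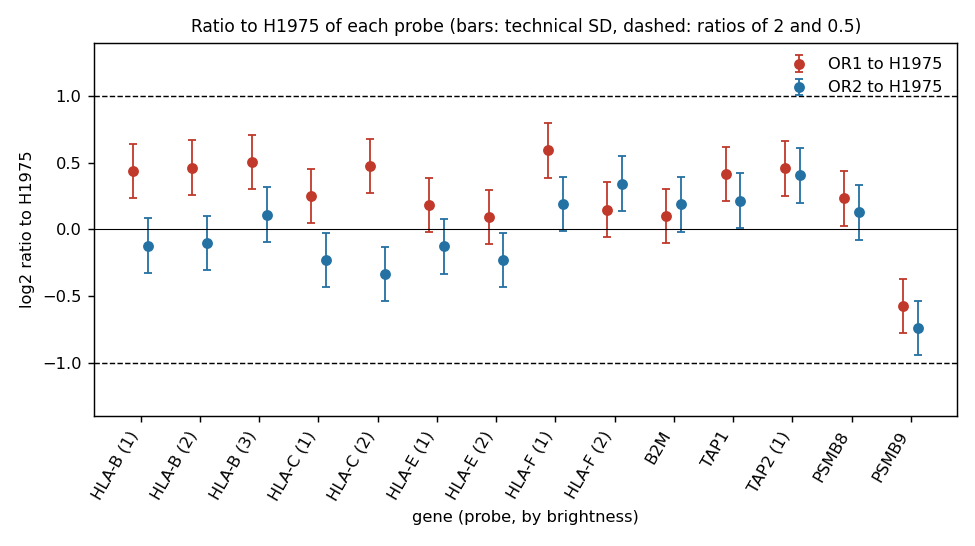
Log2 ratio to H1975 (vertical axis) of the 14 member probes with a ratio, in OR1 and OR2. Bars are the technical SD, not a replicate error, and dashed lines are the ratios of 2 and 0.5. No probe crosses a dashed line, and PSMB9 is the only gene below 0 in both lines.

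The heavy chains carry the peptide, and the 4 members of this kind stood higher in OR1 than in OR2 by their brightest probes, an order that spike-in scaling turned. HLA-B and HLA-C are classical heavy chains, which present peptides to T cells. HLA-E and HLA-F are non-classical, and HLA-E is the ligand of the NK cell receptor NKG2A. The median log2 ratio of the 4 was 0.34 in OR1 and -0.13 in OR2.

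HLA-B by its brightest probe (NM_005514, hg19 chr6:31321653-31321712, minus strand) read 15639 in H1975 cells, 18577 in OR1 and 14760 in OR2. The ratio was 1.35 in OR1 (log2 ratio 0.44, technical SD 0.20) and 0.919 in OR2 (log2 ratio -0.12, technical SD 0.20). The other HLA-B probes gave ratios of 1.38 and 1.42 in OR1 and of 0.932 and 1.08 in OR2. Under the 75th percentile all 3 probes thus put OR1 highest, while OR2 stood on either side of H1975 within the technical SD. The ratio of OR2 to OR1 was 0.678, 0.677 and 0.761 over the 3 probes.

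HLA-C had the lowest ratio of OR2 to H1975 among the heavy chains. Its brightest probe read 27948 in H1975 cells, 29134 in OR1 and 24489 in OR2, for ratios of 1.19 and 0.853. Its second probe (NM_001243042, hg19 chr6:31236617-31236676, minus strand) read 20177, 24573 and 16424, for ratios of 1.39 and 0.792. On this scaling both probes placed OR1 above and OR2 below H1975. The ratio of OR2 to OR1 was 0.717 by the first and 0.570 by the second.

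The brightest probe named HLA-C cannot be taken as HLA-C alone. The file places it at hg19 chr6:31321644-31321703, beside the HLA-B probes and away from the second HLA-C probe. It shares an unbroken run of 41 bases with the second HLA-B probe and of 33 bases with the brightest. A window of 30 bases of each is printed to show how near they are, with capitals at position 15, counted from 1 at the 5′ end, where the brightest HLA-B probe differs from the second by G15T and the HLA-C probe does not.
HLA-B, second probe: gtcaattcctggaaGttgagagagcaaata
HLA-B, brightest probe: gtcaattcctggaaTttgagagagcaaata
HLA-C, brightest probe: gtcaattcctggaaGttgagagagcaaata

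The second HLA-C probe shares no run of 25 bases or more with another probe, and its values carry the HLA-C result on their own. HLA genes are among the most variable of the genome, and how the alleles of H1975 match these probes was not tested.

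HLA-E by its brightest probe stayed near H1975 in both lines. Its brightest probe (NM_005516, hg19 chr6:30460882-30460941, plus strand) read 80521 in H1975 cells, 80037 in OR1 and 75683 in OR2, for ratios of 1.13 and 0.915. The second probe (hg19 chr6:30460729-30460788) read 5404, 5053 and 4724, for ratios of 1.07 and 0.851. By the brightest probe both log2 ratios, 0.18 and -0.13, were under the technical SD of 0.20, and the OR1 ratio with spike-in scaling was 0.750. That probe shares runs of 25 bases or more with 8 probes under other names, 1 of which carries no gene name, the longest of 48 bases with a PTK6 probe. Of these runs, 3 are on the opposite strand. The second HLA-E probe shares no such run. Its log2 ratio was 0.09 in OR1 and -0.23 in OR2, the latter larger in size than the technical SD of 0.20.

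HLA-F had the highest ratio of any member in OR1 by the brightest probes, but not by the median over each gene's probes. Its brightest probe (NM_018950, hg19 chr6:29693280-29693338, plus strand) read 17004 in H1975 cells, 22461 in OR1 and 19917 in OR2, for ratios of 1.51 and 1.14. In OR1, 82.1% of genes well above background on all 3 arrays had a lower ratio. The second probe (NM_001098478, hg19 chr6:29692114-29692173) read 301, 293 and 393, for ratios of 1.11 and 1.27. Both probes put both resistant lines above H1975 and they differed on which was higher, the ratio of OR2 to OR1 being 0.757 by the first and 1.14 by the second. With spike-in scaling the brightest probe stood at 0.997 in OR1.

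B2M, the light chain shared by all class I molecules, differed little between the lines. It lies outside the MHC, on chromosome 15 (NM_004048, hg19 chr15:45007773-45007832, plus strand), and its probe was spotted 10 times on each array. The spots ranged from 18676 to 20046 in H1975 over the 9 spots used, from 17428 to 18841 in OR1 and from 20946 to 23843 in OR2. Before scaling, the ranges of OR2 and H1975 did not overlap, and those of OR1 and H1975 overlapped. The SD between spots was 0.03, 0.04 and 0.06 on the log2 scale. The technical SD of 0.20 for a ratio is larger, but it rests on the error of single spots and was not reduced for the repeats. After scaling, the ratio was 1.07 in OR1 (log2 ratio 0.10) and 1.14 in OR2 (log2 ratio 0.19), both within that technical SD, while OR1 was below 1 with median scaling (0.995), no scaling (0.940) and spike-in scaling (0.710). On the 75th percentile B2M was the only member whose brightest probe was higher in OR2 than in OR1, at a ratio of 1.06. TAP2 joined it with median scaling, PSMB8 with normexp, TAP1, TAP2, PSMB8 and PSMB9 with no scaling, and every member with spike-in scaling. The probe and the promoter are printed as those of the member with the most spots and with matches to both motifs. The promoter capitals mark the same motifs as above, here 2 overlapping matches to the first and 1 to the second.
B2M probe: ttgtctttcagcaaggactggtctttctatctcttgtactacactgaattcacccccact
B2M promoter, GRCh38.p14 chr15:44711267-44711516, plus strand: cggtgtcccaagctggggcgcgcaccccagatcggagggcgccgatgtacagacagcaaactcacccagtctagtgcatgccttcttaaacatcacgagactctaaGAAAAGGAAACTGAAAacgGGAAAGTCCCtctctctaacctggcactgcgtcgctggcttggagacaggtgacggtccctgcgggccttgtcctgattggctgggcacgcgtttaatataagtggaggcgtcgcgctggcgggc

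The genes around the members moved differently from one another. Among 192 other genes with a probe on chromosome 6 between 28 and 34 Mb (hg19), the median log2 ratio was 0.46 in OR1 and 0.21 in OR2, above the 0.01 and -0.08 of all genes. Of these, 9.90% were up in both lines, beside 5.4% of all genes, and 3.13% were down in both, beside 6.71%. The members of this region thus lay in a stretch whose genes were on the whole a little higher, while the 20 genes nearest to B2M had medians of -0.06 and -0.14. Within 100 kb of the PSMB9 probe, TAP2, PSMB8 and TAP1 lay above H1975 in both lines, as did PSMB8-AS1 and LOC100294145. HLA-DOB, HLA-DMB and HLA-DMA, which are MHC class II genes, lay below it like PSMB9. Their log2 ratios were -0.58 and at most -0.80 for HLA-DOB, -2.73 and -1.98 for HLA-DMB and -1.37 and -0.92 for HLA-DMA, in OR1 and OR2. Both medians share the H1975 array, and copy number was not measured here.

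**Figure D3:**
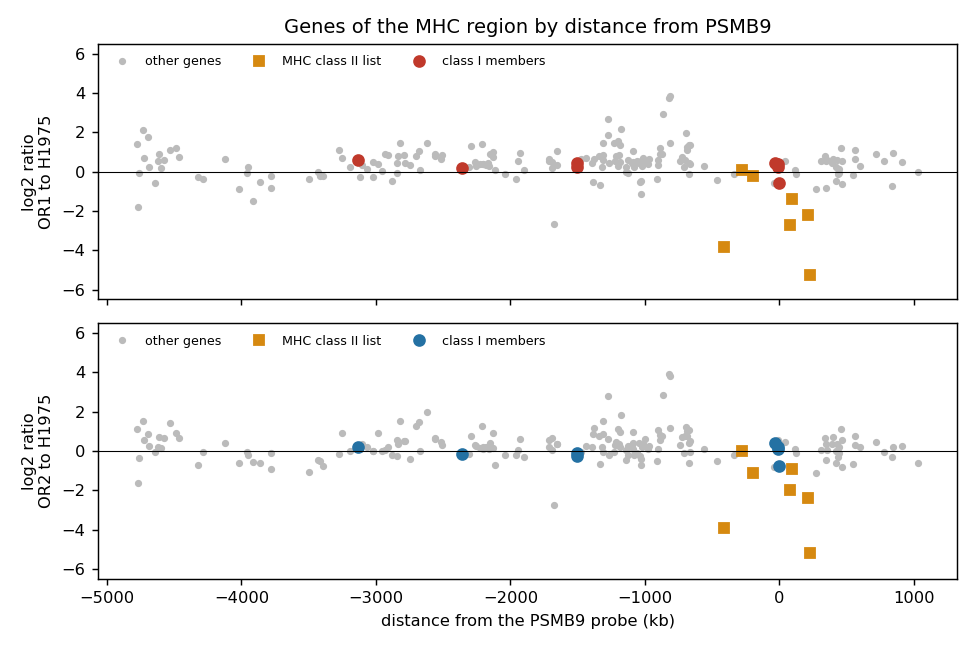
Log2 ratio to H1975 (vertical axes; OR1 above, OR2 below) of the genes with a probe on chromosome 6 from 28 to 34 Mb, by distance in kb from the PSMB9 probe. Class I members lie near 0, and 5 of the 7 genes of the class II list (squares) lie below -1 in OR1; genes not well above background in a line are drawn at their bound.

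Among genes that load and trim peptides for class I, 0 of 7 were up or down in both lines. Of all genes, 5.4% were up in both and 6.71% down in both. TAPBPL was down in OR1, as were 9.58% of all genes. TAPBP encodes tapasin, which holds the heavy chain at TAP, and its brightest probe read 4259, 4054 and 5040 in H1975, OR1 and OR2, for ratios of 1.09 and 1.15. TAPBPL, the tapasin-like peptide editor, read 297, 109 and 161, for ratios of 0.420 and 0.529. It stood apart from the list, whose median log2 ratio was 0.22 in OR1 and 0.05 in OR2, or -0.38 in OR1 with spike-in scaling. The trimming peptidases ERAP1 and ERAP2 had ratios of 1.34 and 1.21, and of 1.33 and 1.49. Of the chaperones, calreticulin (CALR) had ratios of 1.30 and 1.03, and calnexin (CANX) of 1.15 and 0.752 by its brighter probe and of 1.11 and 1.78 by its other one, so that the CANX probes differ in direction in OR2.

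The regulators of class I transcription held genes on both sides of H1975. Of 12 genes, 11 had a ratio in both lines, with 6 above 1 in both and 5 below 1 in both, and 1 was up in both, beside 37.5% of all genes above 1, 41.8% below 1 and 5.4% up in both. NLRC5, the class I coactivator, read 112 in H1975 cells, 205 in OR1 and 210 in OR2, for ratios of 2.09 and 1.83, and its second probe gave 2.52 and 2.79. NFYB, a subunit of the CCAAT-binding factor NF-Y, was the gene up in both lines, at 2.34 and 2.90. RFX5 had ratios of 1.87 and 1.98, RFXANK of 2.33 and 1.87, and RFXAP of 1.15 and 1.64, so that the 3 subunits of the RFX complex were all above H1975, though RFXAP not in OR1 with spike-in scaling. Under that scaling 0 of the 12 genes were up in both lines, while NLRC5, RFX5, RFXANK and NFYB stayed above 1 in both.

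The 5 regulators below 1 in both lines were so by their brightest probes. Of these, IRF1, a transcription factor that interferon gamma induces, read 363 in H1975 cells, 232 in OR1 and 313 in OR2. Its ratios were 0.728 and 0.840. STAT2 had ratios of 0.576 and 0.630, and IRF9, its partner in the ISGF3 complex, of 0.418 and 0.567, although its second probe, at 0.566 and 0.554, was not down in OR1. NFYC, another NF-Y subunit, which is named here after its values were seen, had 0.728 and 0.733 by its brightest probe. Its second probe stood above H1975 in both lines, at 1.08 and 1.16. The remaining NFYC probes gave 0.919 and 0.803, and 0.806 and 0.802, so that its probes differ in direction. IRF2 was not well above background and has no ratio. No regulator was down in both lines, beside 6.71% of all genes. The receptor chain IFNGR1 had ratios of 1.12 and 1.14 and IFNGR2 of 1.86 and 2.08, while the kinase JAK1 had 1.02 and 1.56 and JAK2 0.634 and 1.25. Of this list of 4, 0 were up or down in both lines, beside 5.4% of all genes up and 6.71% down in both.

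Class I-like genes and ligands of NK cell receptors were mostly higher than in H1975, also with spike-in scaling, where 5 of 9 were above 1 in both lines. Of 10 genes, 9 had a ratio in both lines, of which 7 were above 1 in both, beside 37.5% of all genes, and 1 was up in both, beside 5.4%. That gene was ULBP1, no longer up in both with median, no or spike-in scaling or with normexp, a ligand of the activating receptor NKG2D, which read 81.0 in H1975 cells, 150 in OR1 and 231 in OR2, for ratios of 2.12 and 2.77. HFE, a class I-like protein of iron metabolism, had ratios of 3.01 and 1.70, from intensities of 36.2, 95.3 and 63.2. FCGRT, the heavy chain of the neonatal Fc receptor, had 1.81 and 1.66. MR1, which presents vitamin metabolites, had 0.920 and 0.970, and ULBP3, at 14.5 to 19.3 intensity units near the background limit, had 1.37 and 0.876. The median log2 ratio of the list was 0.67 in OR1 and 0.73 in OR2.

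Class II genes present peptides from outside the cell to CD4 T cells, and most of them were far lower in OR1 and OR2 than in H1975. Of 10 genes, 9 had a ratio, and 6 of these were down in both lines, beside 6.71% of all genes. The median log2 ratio of the list was -2.39 in OR1 and -2.37 in OR2. With normexp background correction it was -1.31 and -1.27, so its size depended on the correction. The ratios and bounds below rest on the scanner software's background correction. CIITA, the class II counterpart of NLRC5, read 293 in H1975 cells, 14.5 in OR1 and 50.1 in OR2, for ratios of 0.0564 and 0.167. CD74, the invariant chain, read 68.2 in H1975 and was not well above background in OR1 or OR2, so that it was at least 5.25-fold lower in OR1 and 5.56-fold lower in OR2. HLA-DRA read 186 in H1975 and was likewise at least 14.3-fold and 15.1-fold lower. HLA-DPB1, from 498 in H1975, was at least 38.3-fold and 37.1-fold lower. HLA-DPA1 had ratios of 0.221 and 0.194 by its main probe, and by its other one, which read 397 in H1975, of at most 0.033 in OR1 and of 0.073 in OR2. HLA-DMB had ratios of 0.150 and 0.254, and HLA-DMA of 0.388 and 0.529. HLA-DRB1 read 93.3 in OR1 and 104 in OR2, for ratios of 1.06 and 1.02, and HLA-DQB1 0.851 in OR1 and at most 0.460 in OR2. The H1975 levels of the class II genes with a ratio lay between 31.3 and 701 intensity units.

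**Figure D4:**
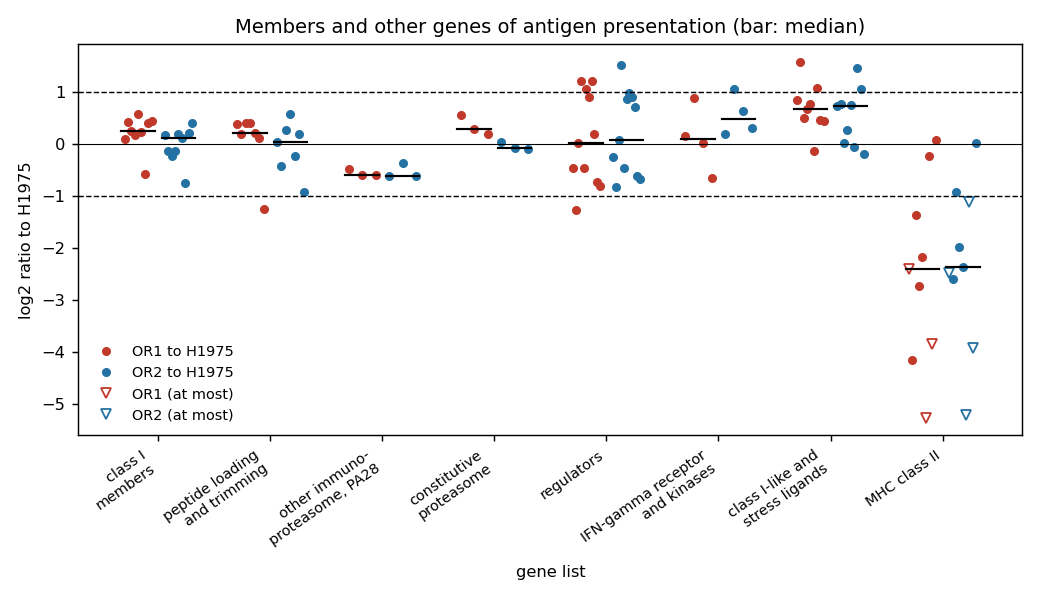
Log2 ratio to H1975 (vertical axis) of the members and of 7 lists of other antigen presentation genes, with 1 point per gene by its brightest probe and the median as a bar. Open triangles are upper bounds where the resistant line was not well above background. The members lie between -0.58 and 0.59 in OR1, while the class II median is -2.39 in OR1 and -2.37 in OR2. With normexp background correction, not drawn here, the class II median is -1.31 in OR1 and -1.27 in OR2.

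The 3 genes whose pair of log2 ratios was nearest to the members' median pair were DPP9, PDE10A and DNAJB1, at a Euclidean distance of 0.006 to 0.010 over 3 arrays. Of 18580 genes compared, 410 lay within 0.1 of that pair, so nearness to it set few genes apart.

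**Figure D5:**
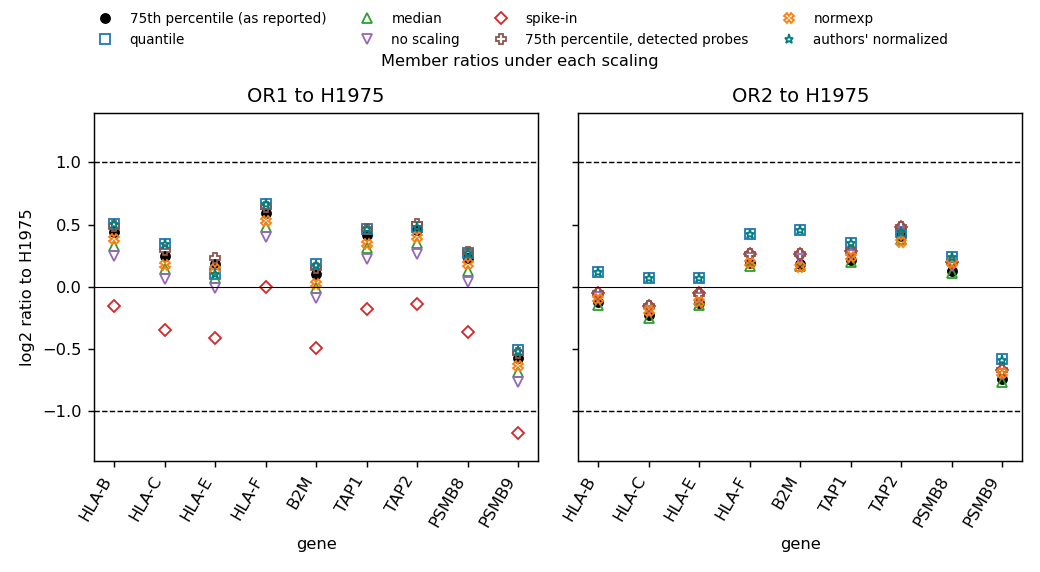
Log2 ratio to H1975 (vertical axis) of each member by its brightest probe under 8 ways to scale or correct the arrays, for OR1 and OR2. PSMB9 stays below 0 under all 8 in both lines, the other members fall to 0 or below in OR1 with spike-in scaling, and HLA-B, HLA-C and HLA-E in OR2 lie above 0 with quantile normalization and with the authors' normalized values.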

How the data were processed

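RNA of H1975, OR1 and OR2 was labelled with Cy3 and hybridized by the authors to 1 array per line. The deposited scanner files hold intensity per spot, corrected for background by Agilent Feature Extraction (9.5.1.1 in the submitters' processing notes, 10.7.1.1 in the file headers) and not scaled between arrays. A second deposited table of normalized intensity, with a method not given in the sources used here, differed from quantile-normalized values by a median of 0.0013 in log2 and was used as an alternative only.

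Control probes and outlier spots were dropped. Spots of the same probe were averaged on the log2 scale, and the 75th percentile of the array was then subtracted. The probe with the highest mean stood for a gene, and every member probe is also given. Where a line was not well above background, its value was set to the array's lowest signal well above background. The probe's own signal was used where that was higher. The ratio was then given as a bound. Of 15 member probes, 13 matched a RefSeq accession, all with the same symbol. Sequences are from the scanner files and from RefSeq (GRCh38.p14), probe positions on hg19. The pathway lists, the rule for named genes and the members were chosen with earlier results of these data known. Named genes are the members, 13 set genes whatever their values, list genes past the ratios in both lines, and at most 4 with the highest or lowest ratios per list. The calls were tested on simulated data. Alternatives were other scalings, normexp (offset 50), the background filter, outlier and saturated spots, the probe for a gene, and ratios of 1.5 and 4. Tools were Python 3.11.15, pandas 2.3.3, R 4.3.3 and limma 3.58.1. The values of 1 regulator gene and 1 probe sequence are not reported here.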

Additional observations from a re-analysis of the deposited data

Results flagged for a closer look

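By the brightest probe of each, these genes stood above H1975 in one resistant line and below it in the other, each on 1 array per line, and the difference between OR1 and OR2 was not tested. Given as the ratio of OR2 to OR1, it was 0.678 for HLA-B (1.35 in OR1 and 0.919 in OR2), 0.717 for the brightest probe named HLA-C (1.19 and 0.853), which is not specific to HLA-C by its sequence, 0.570 for the second HLA-C probe (1.39 and 0.792) and 0.807 for HLA-E (1.13 and 0.915). For the ER chaperone CANX it was 0.656 (1.15 and 0.752) by the brighter probe, while the other probe stood above H1975 in both lines (1.11 and 1.78). The constitutive proteasome subunits PSMB6 and PSMB7 had 0.780 (1.22 and 0.951) and 0.819 (1.14 and 0.936). Their OR2 log2 ratios to H1975, -0.072 and -0.095, were under the technical SD of 0.20. With quantile normalization and with the authors' normalized intensities PSMB6 and PSMB7 were above 1 in both lines. So were HLA-B, HLA-E and the brightest probe named HLA-C. JAK2, a kinase of the interferon gamma receptor, had 1.97 (0.634 and 1.25), and the NKG2D ligand ULBP3, near the background limit, had 0.641 (1.37 and 0.876).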

How the results depend on the processing

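Values under other settings are given on the log2 scale for ratios. Over 15 alternatives, 662 of 758 recomputed values stayed within the technical SD (counts within 1.5 times) and 96 moved. The 662 include values that a setting could not move, such as those with saturated spots left out, where no spot was saturated. PSMB9 was below 1 in both lines under every one of its 12 alternatives. Several of these could not change it, namely the background filters, the saturated spots and the median over its single probe. The authors' normalized intensities nearly repeat quantile normalization. Spike-in scaling (7 probes) lowered OR1 for every member, to -0.16 for HLA-B, -0.35 for HLA-C, -0.41 for HLA-E, -0.0040 for HLA-F, -0.49 for B2M, -0.18 for TAP1, -0.14 for TAP2, -0.36 for PSMB8 and -1.17 for PSMB9, which was then 1 member down in OR1. The median in OR1 became -0.35 over members and -0.59 over all genes. For OR2 to OR1, spike-in scaling gave 0.11, 0.19, 0.36 and 0.27 for HLA-B, HLA-C, HLA-E and HLA-F, 0.76 for B2M, 0.47 and 0.62 for TAP1 and TAP2, and 0.57 and 0.50 for PSMB8 and PSMB9. With no scaling these were -0.33, -0.25, -0.081 and -0.17, then 0.31, 0.027 and 0.18, and 0.12 and 0.062. In OR2 to H1975, quantile normalization gave 0.12 for HLA-B, 0.070 for HLA-C, 0.43 for HLA-F and 0.46 for B2M, and the authors' normalized intensities 0.12, 0.070, 0.43 and 0.46. HLA-E in OR2 to OR1 was -0.029 with both. The second brightest probe gave 0.47 (OR1) and -0.81 (OR2 to OR1) for HLA-C, 0.15 and 0.19 for HLA-F, and a median of -0.17 in OR2 over the 4 heavy chains, which alone have a second probe with a ratio and whose median by the brightest probes was -0.13. The median over probes gave 0.37 and -0.10 for HLA-F. The cause of these shifts was not tested.

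Counts of all genes up in OR1, in OR2 and in both were 785, 668 and 461 with normexp, 4558, 3687 and 2057 with no background filter, 4423, 3734 and 2573 at a ratio of 1.5, and 464, 381 and 265 at a ratio of 4. Those down were 1126, 916 and 705 with normexp, 3677, 3743 and 2437 with no filter, 4079, 4357 and 2957 at 1.5, and 607, 518 and 422 at 4. Requiring all 3 arrays well above background left 1245 down in OR2 and 873 in both, and 3 class II genes down in both in place of 6. With spike-in scaling 776 genes were up and 5523 down in OR1, and 597 up and 1569 down in both, in place of 1141 and 1417. Regulators up in both numbered 2 with quantile normalization, with the authors' normalized intensities and with the median over probes, 0 with spike-in scaling, with normexp and at a ratio of 4, and 4 at 1.5. Class I-like genes up in both numbered 0 with median, no and spike-in scaling, with normexp and at 4, and 4 at 1.5. At 1.5, 1 member was up in OR1 (HLA-F) and 1 down in OR2 (PSMB9), 1 interferon gamma receptor gene was up in both, and 1 loading gene, 1 gene of the PSMB10 and PA28 list and 3 regulators were down in both.

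No paired analysis was possible because each line has 1 array, and for the same reason no replicate was left out. Precision is limited by the number of arrays, and probes near the background limit, such as those of ULBP3 and HLA-DQB1, are read least surely.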
